A study of Mus musculus with 8 samples.

Results

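Immunoglobulin kappa variable (Igkv) segments are the gene pieces that encode the antigen-binding end of the kappa antibody light chain. Every gene whose symbol starts with Igkv in the deposited tables was taken: 70 of the 19685 genes listed for long-term hematopoietic stem cells (LT-HSC) and 100 of the 18904 listed for multipotent progenitors (MPP). All 70 were among the 100, and segments outside a table are not analysed here. Poly(A) RNA was sequenced as 50 bp paired-end reads in 8 libraries, 2 for each genotype, WT and KO, in each population. The sorted cells came from mice that had been transplanted 20 weeks before with wild-type (WT) or Tet1 knockout (KO) bone marrow, so the WT groups had been transplanted as well. Marrow was from mice of 6 months, the strain is labelled CD57BL/6, and 10000 LT-HSC or 100000 MPP went into a library. The Tet1 protein is a dioxygenase that starts the removal of methyl marks from cytosine in DNA. The part of Tet1 that is deleted, the sort gates, the sex of the mice, the cells left over from the host and whether the 2 libraries of a group came from separate animals are points on which the sources used here say nothing. The p-values below therefore measure only the spread between libraries, which may be technical.

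As background, a developing B cell makes a kappa light chain gene by joining a V segment to a J segment that lies just upstream of the constant gene Igkc, using the RAG recombinase. A further join can replace an earlier one and then uses a J segment farther downstream. Plasma cells, the antibody-secreting end of the B lineage, hold very large amounts of transcript from their joined segment, and all progeny of a B cell that has finished joining carry the same segment. Blood stem cells and multipotent progenitors come before this joining. A V segment can also be transcribed without being joined, and a count per segment does not tell the 2 kinds of transcript apart.

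Many Igkv segments are close copies of each other, which bears on every value per segment. The 2 pairs below are shown because the results below turn on them and because they show how few bases separate such copies from one another. Each line holds at most 300 bases of the coding part, 5′ to 3′, from GENCODE M21 (GRCm38) by symbol, and capitals mark the bases that differ from, or have no partner in, the other member of the pair; all such bases lie within the stretch shown.
Igkv6-20: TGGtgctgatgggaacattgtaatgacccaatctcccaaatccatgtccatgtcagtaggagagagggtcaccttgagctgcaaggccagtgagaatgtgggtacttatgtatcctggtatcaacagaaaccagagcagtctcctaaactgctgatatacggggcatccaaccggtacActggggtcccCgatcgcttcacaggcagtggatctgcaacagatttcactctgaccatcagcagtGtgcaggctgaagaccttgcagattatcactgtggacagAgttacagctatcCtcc
Igkv6-29: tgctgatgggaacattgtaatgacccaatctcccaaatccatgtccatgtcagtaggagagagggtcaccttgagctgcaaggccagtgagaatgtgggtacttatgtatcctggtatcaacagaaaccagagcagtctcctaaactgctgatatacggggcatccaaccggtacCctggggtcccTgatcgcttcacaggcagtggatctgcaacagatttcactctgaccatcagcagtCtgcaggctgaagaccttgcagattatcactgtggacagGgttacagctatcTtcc
Igkv8-19: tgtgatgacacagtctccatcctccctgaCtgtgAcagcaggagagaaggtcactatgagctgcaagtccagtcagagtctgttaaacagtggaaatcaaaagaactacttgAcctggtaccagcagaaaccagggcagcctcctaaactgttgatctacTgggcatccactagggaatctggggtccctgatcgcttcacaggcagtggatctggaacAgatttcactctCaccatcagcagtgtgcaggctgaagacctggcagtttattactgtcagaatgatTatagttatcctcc
Igkv8-28: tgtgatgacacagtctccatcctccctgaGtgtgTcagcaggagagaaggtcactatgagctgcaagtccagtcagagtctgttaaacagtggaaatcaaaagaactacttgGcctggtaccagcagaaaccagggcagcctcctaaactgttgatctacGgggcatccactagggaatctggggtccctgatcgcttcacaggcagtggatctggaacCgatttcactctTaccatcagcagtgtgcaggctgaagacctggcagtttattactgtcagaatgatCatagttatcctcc
The Igkv6-20 and Igkv6-29 coding parts were 97.7% identical, with 5 substitutions, 3 unpaired bases and an identical run of 175 bases. Igkv8-19 and Igkv8-28 were 97.7% identical, with 7 substitutions and an identical run of 77 bases. Both runs are longer than a 50 bp read. Of the 100 segments, 22 had no stretch of 50 bases in common with another GENCODE M21 gene, and the median segment had 76.3% of its 50-base stretches to itself. The rule by which the authors assigned reads that fit several segments is likewise not stated in the sources, and the split of counts within such pairs is uncertain.

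The segments lie on chromosome 6 of the mm9 build between 67505630 and 70654171, a span of 3.15 Mb that ends 18.4 kb before Igkj1, the first kappa J segment. They were ordered by position and divided into a J-distal block of 34 segments (Igkv2-137 to Igkv4-91), a middle block of 33 (Igkv4-90 to Igkv12-41) and a J-proximal block of 33 (Igkv5-39 to Igkv3-1, 18.4 to 822 kb from Igkj1). Segments on the same strand as the J segments numbered 39. GENCODE M21 annotates 94 of the 100 as V genes and 6 as V pseudogenes. The number before the hyphen in a symbol gives the sequence family, and 25 of the 100 segments belong to family 4.

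Total counts were 4976459 to 5479731 per LT-HSC library and 11928659 to 12504581 per MPP library. Tet1 itself had 336 and 379 counts in the LT-HSC KO libraries and 332 and 428 in LT-HSC WT, which did not separate the genotypes, so KO there means the libraries labelled KO. In MPP it had 765 and 855 counts in KO and 1207 and 1323 in WT (log2 fold change -0.62, SE 0.09, adjusted p = 0.0282). All 4 Y-linked genes checked were lower in KO in both populations (summed 2.95 to 14.2 CPM, counts scaled to the effective library size, in KO, 150 to 171 in WT), so sex and genotype cannot be told apart in any comparison. Stem cell genes such as Kit and Ly6a were present in both populations: 12 of 13 identity markers were listed, and Hoxb5 was not. Of these 12, 1 was higher and 5 lower in LT-HSC KO, and 1 was higher and 2 lower in MPP KO. Fold changes are log2 KO over WT, SE is their standard error, and adjusted p-values come from edgeR's quasi-likelihood test with Benjamini-Hochberg adjustment over all genes tested.

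Kappa V transcripts were scarce in LT-HSC and abundant in MPP, and in MPP they were higher in KO. In MPP, the 100 segments together had 292234 and 245185 counts in KO and 117089 and 104095 in WT. That was 2.34% and 1.98% of all counts in the KO libraries and 0.982% and 0.865% in the WT libraries. The summed level was 22172 ± 2508 CPM in KO and 9001 ± 779 CPM in WT (SD, n = 2 each), 2.46 times as high in KO. Both KO libraries lay above both WT libraries. Over the 22 segments with no shared 50-base stretch alone, the sums were 2947 and 2914 CPM in KO. In WT they were 2064 and 2032 CPM, a ratio of 1.43. These segments had 35971 and 35029 counts in KO and 25299 and 25028 in WT. Of these counts, Igkv15-103 alone had 12080 and 13353 in KO and 1102 and 1085 in WT. The counts left without Igkv15-103 were not higher in KO than in WT, so this ratio rests on that segment. In such bulk samples, fewer cells of a type and less RNA per cell cannot be told apart.

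In LT-HSC, the 70 segments had 1035 and 664 counts in KO and 737 and 495 in WT. The sums of 198 and 129 CPM in KO and 141 and 95.8 CPM in WT overlapped, with a ratio of 1.38. Over the 12 listed segments with no shared 50-base stretch the ratio turned to 0.307, from only 36 and 28 counts in KO and 119 and 90 in WT. The MPP mean was 76.1 times the LT-HSC mean in WT and 136 times in KO; each population was scaled on its own, so these ratios set levels across separate scalings. The constant gene Igkc, whose exon is spliced to every joined kappa V segment, was higher in MPP KO as well. Its level in MPP was 10987 and 14626 CPM in KO and 4409 and 5579 CPM in WT (log2 fold change 1.36, SE 0.18, adjusted p = 0.0216). In LT-HSC it was 212 and 160 CPM in KO and 179 and 112 CPM in WT, with no call. The MPP KO libraries had 2.18 and 1.39 Igkv counts per Igkc count, against 2.17 and 1.51 in WT: these differed between replicate 1 and replicate 2 in both genotypes and overlapped between genotypes.

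**Figure D1:**
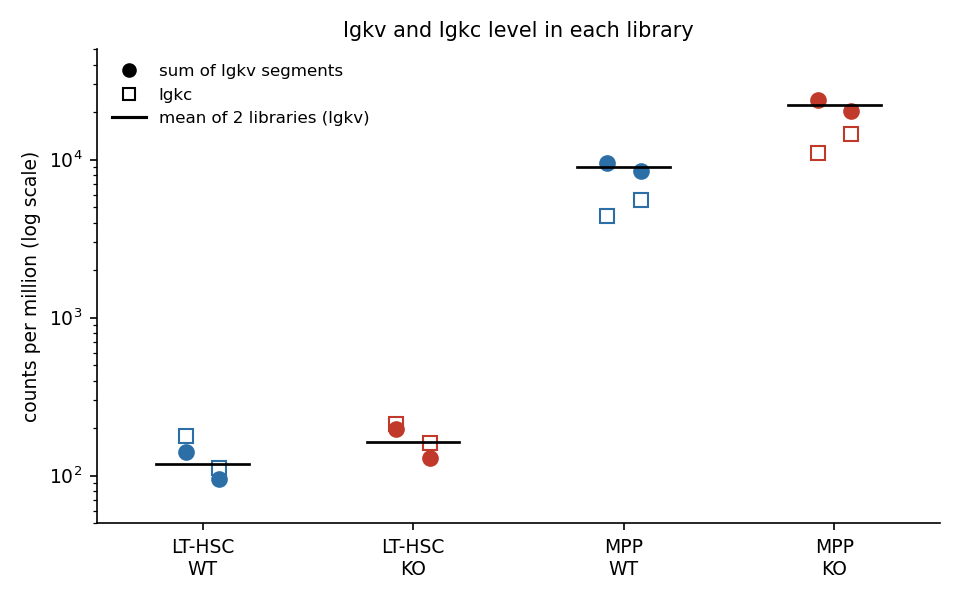
Summed Igkv level (filled circles) and Igkc level (open squares) in each library, in CPM on a log axis, with the mean of the 2 libraries of each group as a bar for Igkv. The MPP KO libraries, at 20398 and 23945, lie above the MPP WT libraries, while LT-HSC KO and WT overlap.

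Although the total overlapped in LT-HSC, the segments that made it up differed between KO and WT by position. The J-proximal block held 90.8% of Igkv counts in KO replicate 1 (95% exact binomial interval 88.9 to 92.5) and 89.5% in KO replicate 2 (86.9 to 91.7). In WT it held 33.6% (30.2 to 37.2) and 32.7% (28.6 to 37.1). The 2 libraries of each genotype lay within each other's intervals, and the genotypes were far apart. The middle block held 4.64% and 5.87% in KO and 42.6% and 45.1% in WT. The J-distal block held 4.54% and 4.67% in KO and 23.7% and 22.2% in WT. In CPM, the J-proximal block was 3.75 times as high in KO as in WT, and the middle and J-distal blocks were 0.162 and 0.274 times as high. With the 5 most counted J-proximal segments of each library left out, the J-proximal share was 75.1% and 72.9% in KO and 17.3% and 17.0% in WT. The segments left out differ between libraries, and near copies of them stay in. In KO replicate 2, for example, Igkv6-20 (74 counts) was left out and Igkv6-29 (45 counts) stayed. These shares therefore do not show how far the shift spreads over the block. The shift rests on segments that share sequence. Only 3 listed J-proximal segments had no shared 50-base stretch, and among the 12 such segments the J-proximal share was 11.1% and 42.9% in KO and 12.6% and 27.8% in WT, which overlapped.

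**Figure D2:**
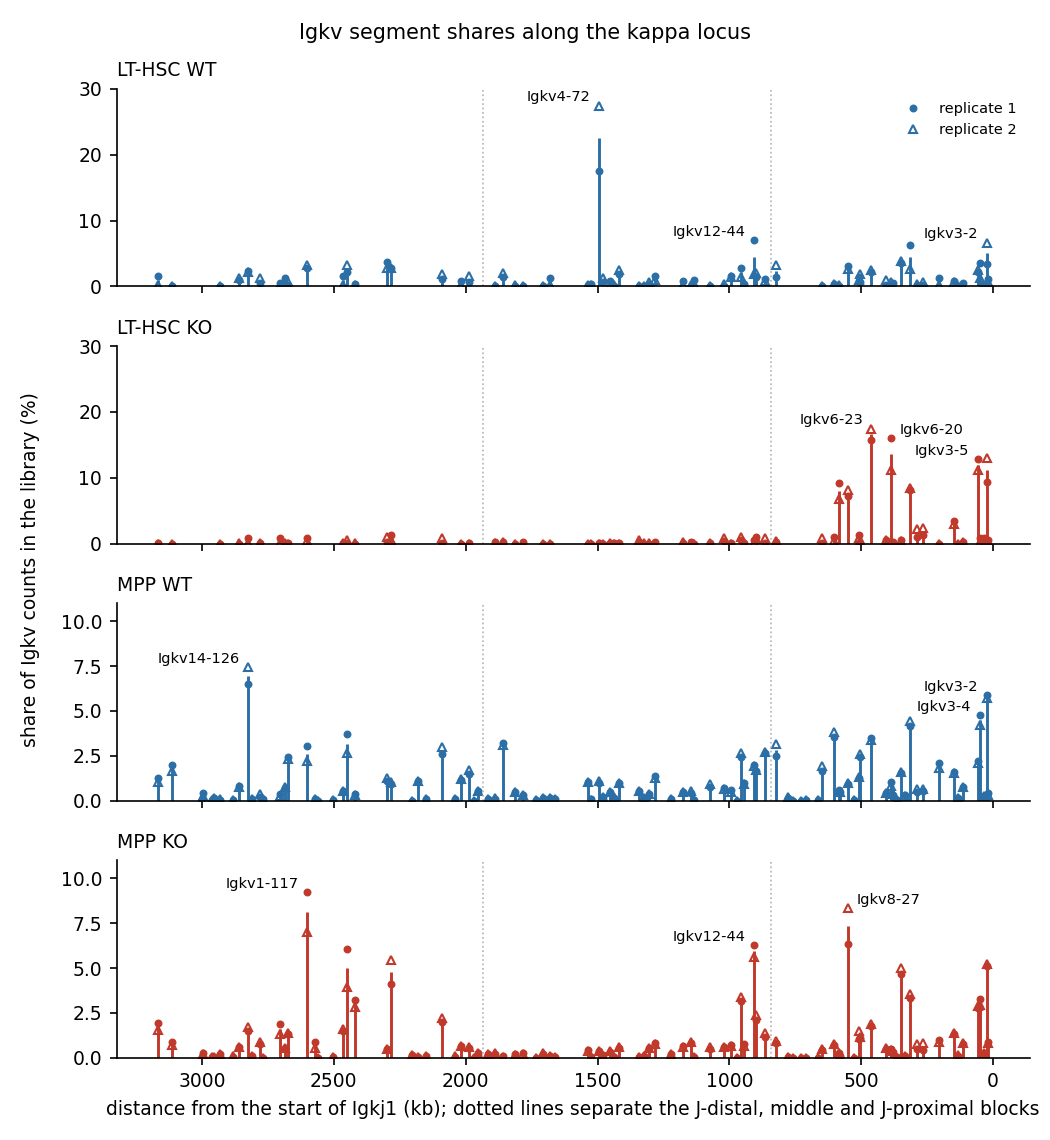
Share of the library's Igkv counts taken by each listed segment, in percent, against its distance from Igkj1 in kb, for the 4 groups; lines are means of 2 libraries, filled circles replicate 1, open triangles replicate 2. In LT-HSC KO the tall lines stand within 822 kb of Igkj1, while in the other groups they stand along the whole locus; Igkv4-72 is the tallest in LT-HSC WT.

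**Figure D3:**
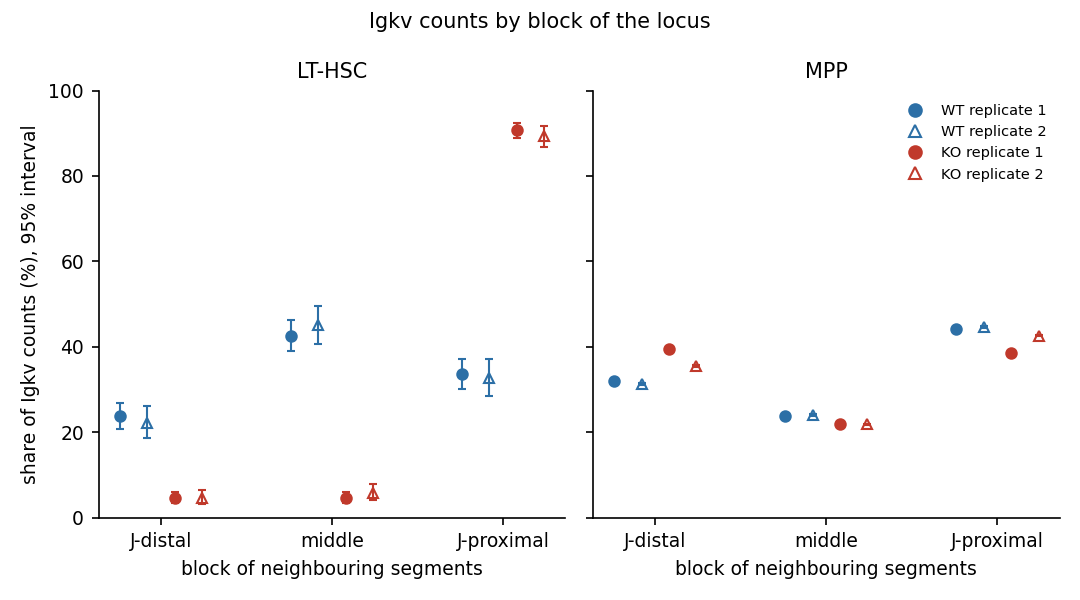
Share of Igkv counts in the J-distal, middle and J-proximal blocks for each library, in percent, with 95% exact binomial intervals that cover counting error only. In LT-HSC the J-proximal block is at 89.5% and 90.8% in KO and 32.7% and 33.6% in WT; in MPP all blocks lie between 21.8% and 44.7%.

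Igkv4-72 was the most counted segment of both LT-HSC WT libraries and was nearly absent from LT-HSC KO. It lies in the middle block (chr6:69176848-69177377, minus strand, 1495 kb from Igkj1). It had 129 and 136 counts in WT, which was 17.5% and 27.5% of all Igkv counts there, and 1 and 0 counts in KO. The ratio of normalised counts, WT over KO, was 265 with an exact 95% counting interval of 47.1 to 10487 (edgeR adjusted p = 0.000161). Its near copy Igkv4-68 (95.7% identical in the coding part, chr6:69254828-69255357) had 14 and 12 counts in WT and 1 and 0 in KO, a ratio of 26.0 (4.26 to 1064, adjusted p = 0.00625). Igkv4-68 was named after its values were seen; it shares stretches of sequence with Igkv4-72, so the separate counts are uncertain. Igkv4-72 had 9.21 and 11.3 counts per Igkv4-68 count in LT-HSC WT against 0.665 to 1.07 in the MPP libraries.

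Segments of family 6 near the J end led in LT-HSC KO. Igkv6-20 (chr6:70285835-70286500, minus strand, 386 kb from Igkj1) had 166 and 74 counts in KO and 2 and 3 in WT (log2 fold change 5.52, SE 0.62, adjusted p = 0.000616). Igkv6-29 (chr6:70088456-70089076) had 95 and 45 counts in KO and 0 and 1 in WT, a ratio of 140.2 with a counting interval of 24.8 to 5579 (adjusted p = 0.000993). For both, the KO libraries stood far above the WT libraries. These 2 segments form the 97.7% identical pair shown above, and 35.9% of the 50-base stretches of Igkv6-20 are its own. Their counts kept a nearly fixed ratio, 1.75 and 1.64 Igkv6-20 counts per Igkv6-29 count in LT-HSC KO and 1.69 to 1.77 in the 4 MPP libraries, so their separate rises are not independent. Igkv6-23 had 163 and 116 counts in KO and 16 and 12 in WT (log2 fold change 3.31, SE 0.36, adjusted p = 0.000509).

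Family 3 segments close to the J end and a family 8 segment rose as well in LT-HSC KO. Igkv3-5 had 133 and 74 counts in KO and 16 and 12 in WT (log2 fold change 2.88, SE 0.43, adjusted p = 0.00193). Igkv3-2, the last but 1 listed segment before the J segments, had 97 and 86 counts in KO and 25 and 33 in WT (1.65, SE 0.33, adjusted p = 0.00587). Igkv8-27 had 75 and 54 counts in KO and 23 and 13 in WT (1.84, SE 0.43, adjusted p = 0.0119). In each of these, the lower KO library stood above the higher WT library. Igkv3-10, Igkv6-13 and Igkv6-14 rose by 2.53 to 2.63 from 4 to 9 counts over the WT libraries. The calls of Igkv3-2, Igkv3-10 and Igkv8-27 were lost without KO replicate 1 (adjusted p up to 0.166), and that of Igkv6-13 without any 1 library and in DESeq2 (adjusted p = 0.0899).

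Of the 70 listed segments, 20 passed the filter on low counts in LT-HSC, and 9 of these were called higher, where 22.5% of all tested genes were called higher. All 9 lay in the J-proximal block, and the smallest log2 fold change among them was 1.65. Another 5 were called lower (10.9% of all tested genes): Igkv4-72 and Igkv4-68 in the middle block, Igkv1-110 and Igkv16-104 in the J-distal block and Igkv6-17 in the J-proximal block. Igkv16-104, with the smallest change of the 5, had 3 and 7 counts in KO and 27 and 14 in WT. The remaining 6 tested segments had no call, and 50 were not tested. A segment high in a single genotype passes such a filter through that genotype, so these counts describe the tested segments and not all members. Over the 20 tested segments the median log2 fold change was 0.75, beside 0.03 over all genes. Without any filter, both KO libraries were above both WT libraries for 17 of the 70 segments (41.3% of all listed genes) and below them for 31 (26% of all listed genes), while 22 overlapped. Without LT-HSC KO replicate 1 the counts were 4 higher and 1 lower, without LT-HSC KO replicate 2 they were 7 and 1, and without LT-HSC WT replicate 1 they were 8 and 1.

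Not all J-proximal segments followed the block in LT-HSC. Igkv6-17, on the same strand as the J segments and 351 kb from Igkj1, had 5 and 3 counts in KO and 26 and 19 in WT (log2 fold change -2.45, SE 0.57, adjusted p = 0.0116). Igkv6-15, a near neighbour, had 85 and 56 counts in KO and 46 and 13 in WT and no call (1.26, SE 0.53, adjusted p = 0.107). The 2 are on opposite strands and of the same family. Igkv3-4, next to Igkv3-5, was not tested; it had 8 and 2 counts in KO and 26 and 6 in WT, which overlapped. Neighbouring segments thus had KO to WT ratios on both sides of 1. The calls of Igkv1-110, Igkv16-104 and Igkv6-17 were lost when single libraries were left out, with adjusted p up to 0.312. DESeq2 also ended those of Igkv1-110 (adjusted p = 0.0716) and Igkv16-104 (adjusted p = 0.101), and the latter was lost without a filter (adjusted p = 0.0738).

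By family, LT-HSC KO counts were gathered in 3 families. Family 6 held 53.4% and 50.8% of Igkv counts in KO and 14.2% and 11.7% in WT. Family 3 held 28.0% and 28.6% in KO and 13.0% and 11.9% in WT, and family 8 held 9.18% and 9.64% against 5.02% and 5.86%. The listed segments of these 3 families lie in the J-proximal block, so family and position cannot be told apart here. Family 4, whose listed segments all lie in the middle block, held 1.64% and 2.41% in KO and 26.7% and 35.2% in WT. Families 1, 12 and 14, which stand mostly far from the J segments, also took a smaller share in both KO libraries than in either WT library.

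Counts of short chemosensory receptor genes (Olfr, Vmn1r and Tas2r, under 2 kb), which serve smell, pheromone and taste sensing, differed between the LT-HSC libraries too. The 28 listed genes had 7.48 and 4.88 counts per kb in KO and 1.51 and 1.44 in WT. On the same scale of counts per kb of listed gene span, J-proximal Igkv segments had 75.9 and 47.9 in KO and 20.0 and 13.1 in WT. Middle segments had 3.60 and 2.92 in KO, below the receptor genes of the same libraries, and 23.5 and 16.7 in WT. J-distal segments had 4.80 and 3.17 in KO, also below the receptor genes, and 17.9 and 11.2 in WT. The J-distal and middle counts of LT-HSC KO were thus no higher per kb than those of the 28 listed receptor genes, while the J-proximal counts were. Receptor genes that are not listed do not enter this comparison. A listed one could have entered through its KO counts, so these values set no background level. The part of such counts in the result was not tested.

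In MPP, 95 of the 100 segments passed the filter. Of these, 49 were called higher in KO, where 4.74% of all tested genes were called higher, and 12 were called lower, where 2.46% of all tested genes were. The remaining 34 had no call. The median log2 fold change of the 95 was 0.86, beside -0.01 over all genes tested. Both KO libraries were above both WT libraries for 72 of the 100 segments (28.9% of all listed genes) and below them for 16 (25.4% of all listed genes), and 12 overlapped. The rises ran from 0.69 to 6.39 with 40 above 1, and the falls from -4.12 to -0.42. Segments thus moved by very different amounts: the summed level was 2.46 times as high, while single segments ranged from far below to far above WT. Without MPP WT replicate 1 or without MPP WT replicate 2, both counts fell to 0 in edgeR's test, with 58 and 51 segments higher and 12 and 14 lower at an unadjusted p under 0.05; without MPP KO replicate 1 or 2 the lower count fell to 5 or 6.

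**Figure D4:**
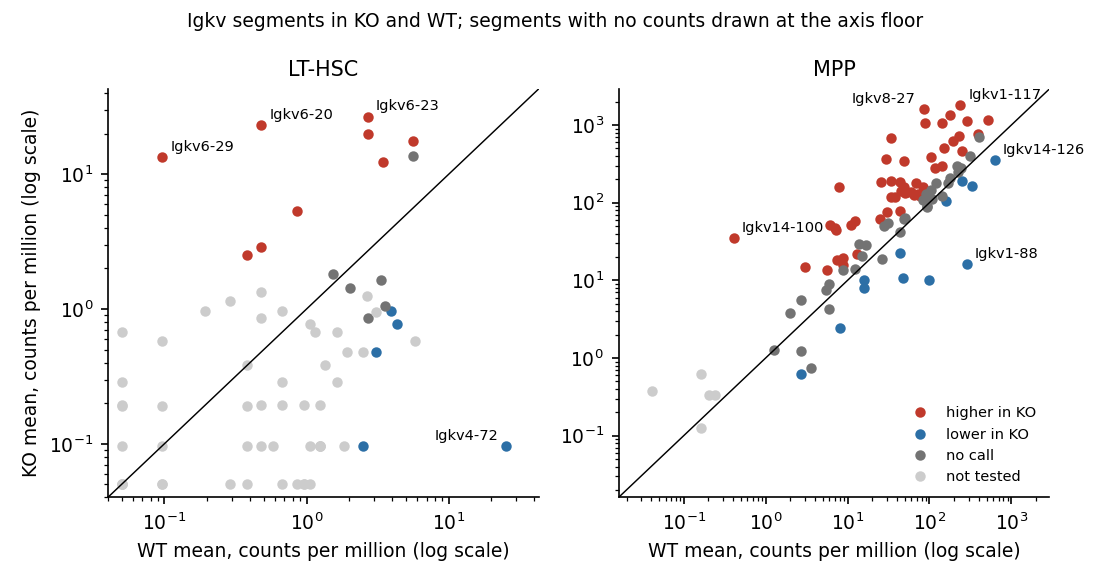
Mean level of each listed segment in KO against WT, in CPM on log axes, n = 2 libraries per group, coloured by the call of edgeR's quasi-likelihood test; the line marks equal levels. In LT-HSC the points scatter widely on both sides of the line, and in MPP the 49 called higher and 12 called lower stand on either side of a band of segments with no call.

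The most counted segments of MPP KO were not those of MPP WT. Igkv1-117 (chr6:68071085-68071821, plus strand, J-distal, 2601 kb from Igkj1) had 26936 and 17195 counts in KO and 3560 and 2276 in WT (log2 fold change 2.94, SE 0.31, adjusted p = 0.012). It was the first segment of KO replicate 1 with 9.22% of Igkv counts and the runner-up in KO replicate 2. Igkv8-27 (chr6:70121803-70122102, minus strand, J-proximal) led KO replicate 2 with 8.35%. It had 18478 and 20476 counts in KO and 1092 and 999 in WT (log2 fold change 4.24, SE 0.11, adjusted p = 0.00077). Igkv12-44 of the middle block came next in both KO libraries, with 18350 and 13820 counts against 2350 and 2040 in WT (2.89, SE 0.16, adjusted p = 0.0026). These 3 leading segments lie in 3 different blocks of the locus.

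Igkv15-103, the only listed segment of family 15, had 12080 and 13353 counts in MPP KO and 1102 and 1085 in WT (log2 fold change 3.56, SE 0.09, adjusted p = 0.00077). It has no shared 50-base stretch, so within that annotation a matching read of this length belongs to it alone. Igkv6-17, which fell in LT-HSC KO, had 13594 and 12303 counts in MPP KO and 1816 and 1682 in WT (2.91, SE 0.09, adjusted p = 0.00077). Igkv1-110, a 97.2% identical copy of Igkv1-117, had 17680 and 9616 counts in KO and 4327 and 2748 in WT (1.96, SE 0.35, adjusted p = 0.0413). This call was lost without a filter, without KO replicate 1 and, like every Igkv call in MPP, without either WT library. Smaller rises were measured for other called segments. Igkv3-2 rose by 1.13 (SE 0.11), Igkv6-15 by 0.99 (SE 0.08) and Igkv10-96 by 0.91 (SE 0.07).

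The segment with the widest rise was Igkv14-100, chosen after its values were seen. It had 472 and 376 counts in MPP KO and 3 and 7 in WT (log2 fold change 6.39, SE 0.29, adjusted p = 0.00139), and has no shared 50-base stretch. Igkv2-109 and the pseudogene Igkv2-116, also chosen after their values were seen, rose by 4.33 (SE 0.22) and 4.35 (SE 0.44). The 6 pseudogenes together had 2842 and 1566 counts in KO and 251 and 184 in WT, and Igkv2-116 alone had 2583 and 1315 of the KO counts. A pseudogene does not encode a working light chain.

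Other segments fell in MPP KO while the total rose. Igkv14-126 (chr6:67846171-67846636, plus strand, J-distal) was the most counted segment of both WT libraries, with 7584 and 7765 counts or 6.48% and 7.46% of Igkv counts. In KO it had 4297 and 4199 counts (log2 fold change -0.83, SE 0.06, adjusted p = 0.00592), and it has no shared 50-base stretch. The deepest fall was that of Igkv1-88, chosen after its values were seen, with 3736 and 3254 counts in WT and 220 and 176 in KO (-4.12, SE 0.14, adjusted p = 0.000828). Igkv1-99, likewise chosen, had 1280 and 1131 counts in WT and 126 and 117 in KO (-3.29, SE 0.11). Among the 22 segments with no shared 50-base stretch, 9 were called higher, 5 lower, 4 had no call and 4 were not tested.

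Near-identical copies could move in opposite directions. Igkv8-19 had 934 and 915 counts in MPP KO and 372 and 369 in WT (log2 fold change 1.34, SE 0.07, adjusted p = 0.00234). Its 97.7% identical partner Igkv8-28, shown above, had 298 and 250 counts in KO and 567 and 496 in WT (-0.94, SE 0.12, adjusted p = 0.0208). There were 3.13 and 3.66 Igkv8-19 counts per Igkv8-28 count in KO and 0.656 and 0.744 in WT, so the order within the pair turned over. This pair was chosen after its values were seen. Igkv4-72, which nearly vanished from LT-HSC KO, had 1174 and 949 counts in MPP KO and 1170 and 1119 in WT, which overlapped (-0.09, SE 0.11, adjusted p = 0.676).

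By position, and over all listed segments, the shares of MPP KO and WT lay closer together than those of LT-HSC KO and WT. The J-distal block held 39.6% and 35.5% of Igkv counts in KO and 32.1% and 31.3% in WT. The middle block held 21.8% and 21.9% against 23.7% and 24.0%, and the J-proximal block 38.6% and 42.7% against 44.1% and 44.7%. Among segments with no shared 50-base stretch, the J-distal share was 70.6% and 73.1% in MPP KO and 50.2% and 51.5% in WT. The J-proximal share among them was 19.4% and 18.3% in MPP KO and 31.4% and 32.6% in WT. In LT-HSC, from 28 to 119 such counts per library, the J-distal and J-proximal shares overlapped. Summed over all their segments, the J-distal, middle and J-proximal blocks rose to 2.93, 2.26 and 2.24 times the WT level. Each held 14 to 18 segments called higher and 3 to 5 called lower. Over segments with no shared 50-base stretch, only the J-distal block was higher, with 25396 and 25608 counts in KO and 12690 and 12882 in WT. Of these counts, Igkv15-103 alone had 12080 and 13353 in KO and 1102 and 1085 in WT. Most of this gain, and much of the rise in J-distal share among such segments, therefore came from Igkv15-103. The other J-distal segments with no shared stretch were together higher in KO by much less. The middle block had 3609 and 2995 such counts in KO and 4668 and 3976 in WT. The J-proximal block had 6966 and 6426 in KO and 7941 and 8170 in WT. Segments on the same strand as the J segments held 56.7% and 52.9% of counts in KO and 47.2% and 44.6% in WT. Of the 39 segments on that strand 25 lie in the J-distal block, among them Igkv1-117 and Igkv1-110, so strand and position are not separate measures.

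By family, small families held both the widest relative gains in MPP KO and the lowest KO to WT ratios. Families 19 and 16, of 1 segment each, stood at 0.863 and 1.03 times the WT level. Family 18, also of 1 segment, stood at 0.764 times, but from only 1 and 2 counts in KO and 1 and 3 in WT. Family 15, which is Igkv15-103 alone, was 11.8 times as high in KO. Family 2, with 4 segments, was 8.19 times as high and went from 1.82% and 1.51% of Igkv counts in WT to 6.10% and 4.95% in KO. Family 12 held 10.9% in each KO library and 7.46% and 7.72% in WT. Families 14 and 4 took smaller shares in KO: 3.35% and 3.68% against 7.07% and 8.10% for family 14, and 7.37% and 7.43% against 10.4% and 10.6% for family 4. Even so, 11 of the 25 family 4 segments were called higher and 3 lower, and family 14 held both Igkv14-100, with the widest rise, and Igkv14-126, which fell.

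The counts were spread over fewer segments in MPP KO than in MPP WT. The inverse Simpson index, the number of equally counted segments that would give the same unevenness, was 27.7 and 29.0 in MPP KO and 37.7 and 36.9 in WT. The smallest set of segments that held 50% of Igkv counts had 10 members in both KO libraries and 14 in both WT libraries. At least 98 of the 100 segments had a count in every MPP library, and after thinning to 495 counts, the total of the shallowest LT-HSC library, 67.4 and 68.0 were expected to be seen in KO and 71.7 and 71.8 in WT. All 3 measures separated the genotypes without overlap.

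In LT-HSC the leading 10 segments held 84.7% and 83.7% of Igkv counts in KO and 53.7% and 58.6% in WT. Thinned to 495 counts, 41.0 and 43.0 segments were expected in KO and 55.4 and 58.0 in WT. Segments that together reached 50% numbered 4 in both KO libraries and 9 and 7 in WT. The inverse Simpson index overlapped, at 10.1 and 10.7 in KO and 18.6 and 10.7 in WT; Igkv4-72 alone held 27.5% of the lower WT library. The KO and WT libraries differed in how many segments carried the counts, and less clearly in how far the leading segment stood out.

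**Figure D5:**
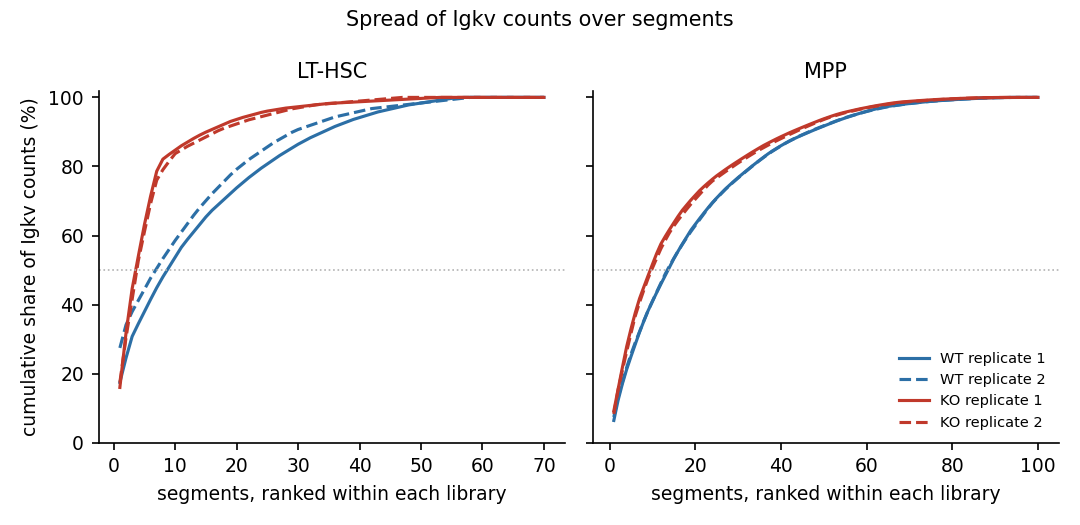
Cumulative share of Igkv counts, in percent, over segments ranked from the most to the least counted within each library; the dotted line is at 50%. The KO curves lie above the WT curves from the third segment on in LT-HSC and, by less, from the first in MPP, until the curves flatten; in MPP 10 segments reach 50% in KO and 14 in WT.

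The KO effects in LT-HSC and MPP were compared directly by the interaction of population and genotype, over the 70 segments listed in both tables. The KO effect was more positive in LT-HSC for 6 segments (13.6% of all tested genes) and more positive in MPP for 29 (8.5% of all tested genes). The former were Igkv6-29, Igkv6-20, Igkv6-23, Igkv6-32, Igkv8-30 and Igkv4-63. Of the 70, 50 had too few LT-HSC counts for the LT-HSC test and entered through their MPP counts, so these counts and fitted values describe the tested segments only. Among the 20 tested in LT-HSC, 3 were more positive in LT-HSC and 9 in MPP, and among the other 50 there were 3 and 20. Igkv6-23 differed by 2.91 (SE 0.28, adjusted p = 0.00129): it rose in LT-HSC KO and had no call in MPP (0.39, SE 0.10, adjusted p = 0.09). In the other direction, Igkv6-17 differed by -5.38 (SE 0.33, adjusted p = 0.000187), with a fall in LT-HSC and a rise in MPP. The 29 fell to 15 without LT-HSC KO replicate 1 or LT-HSC WT replicate 1, to 19 without LT-HSC KO replicate 2 or MPP WT replicate 1, to 17 without MPP KO replicate 1 and to 18 without MPP WT replicate 2, and the 6 fell to 3 without the last and to 4 without LT-HSC WT replicate 2 or any other MPP library.

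Segments called higher in both populations were Igkv8-27, Igkv6-14, Igkv6-13, Igkv3-10, Igkv3-5 and Igkv3-2, which is 6 of the 9 called higher in LT-HSC and 6 of the 49 called higher in MPP. Igkv1-110 and Igkv6-17 were called lower in LT-HSC and higher in MPP. No segment was called higher in LT-HSC and lower in MPP, and none was called lower in both. Igkv14-126, lower in MPP, had 8 and 1 counts in LT-HSC KO and 17 and 11 in WT, with no call. Igkv8-27 rose in both, but more so in MPP: the interaction was -2.41 (SE 0.32, adjusted p = 0.00334).

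Segment profiles were also compared library by library over the 70 segments, as the percentage of counts that 2 libraries share when each is scaled to its own Igkv total. This is a description, since segments of a library are not independent. Libraries of the same group shared 84.3% in the LT-HSC KO pair, 73.3% in the LT-HSC WT pair, 92.2% for MPP KO and 94.8% for MPP WT. LT-HSC KO and LT-HSC WT shared 31.1% to 32.2%, and MPP KO and MPP WT 62.8% to 65.8%. LT-HSC WT shared 55.5% to 64.3% with the MPP libraries of either genotype, and LT-HSC KO shared 35.6% to 39.9%. The LT-HSC KO profile was therefore less like MPP than the LT-HSC WT profile was, in every pair of libraries.

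Genes that accompany kappa transcripts were described from lists. In MPP, 13 of 14 tested genes of antibody-secreting cells were higher in KO (4.74% of all tested genes), with a median log2 fold change of 0.98 and a summed level of 6085 and 7961 CPM in KO and 2799 and 3340 in WT. Prdm1, the transcription factor that drives plasma cell formation, had 975 and 993 counts in KO and 302 and 308 in WT (log2 fold change 1.71, SE 0.08). Igj, the joining chain of secreted IgM and IgA, rose by 1.34 (SE 0.22), and Derl3 and Slamf7 by 1.74 (SE 0.08) and 1.27 (SE 0.08). Heavy chain constant genes rose in 5 of 6 cases. Ighg3 rose by 3.99 (SE 0.12), Ighg2b by 2.82 (SE 0.11) and Ighg2c by 1.44 (SE 0.12). All immunoglobulin genes together made up 9.73% and 9.15% of the MPP KO libraries and 3.85% and 3.68% of the WT libraries. Their part in the Igkv result was not tested.

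In MPP, none of the 5 tested lambda light chain genes was called higher in edgeR's test, and Iglc3 was lower, with 920 and 833 counts in KO and 1434 and 1474 in WT (log2 fold change -0.71, SE 0.07, adjusted p = 0.012). The lambda sum was 778 and 720 CPM in KO and 840 and 788 in WT, and the groups did not overlap. Of the kappa constant and joining genes, Igkc and Igkj1 were called higher and the other 4 had no call. Igkj1 had 183 and 249 counts in KO and 33 and 69 in WT (2.10, SE 0.35, adjusted p = 0.0344).

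Of the general B cell genes in MPP, 2 of 11 were higher, Cd79a and Fcrla, and Fcer2a was lower, with a median of -0.12, where 4.74% of all tested genes were higher and 2.46% lower. Of the pre-B and recombination genes, 6 of 15 were higher, with a median of 0.50. Vpreb1 and Igll1, the surrogate light chain that pairs with the heavy chain before kappa is made, rose by 1.03 (SE 0.19) and 0.99 (SE 0.13). Rag1 and Rag2, the recombinase itself, are not listed in either table and were not analysed here. Among transcription factors that act on the kappa enhancers, 2 of 11 were higher: Pou2af1, a coactivator of octamer sites in V promoters (0.83, SE 0.08), and Spib (0.58, SE 0.09).

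In LT-HSC these lists held calls in both directions, beside 22.5% of all tested genes higher and 10.9% lower. Of the antibody-secreting cell genes, 2 of 11 were higher and 3 lower, with a median of -0.47 and sums of 435 and 470 CPM in KO and 468 and 473 in WT. Prdm1 rose by 2.02 (SE 0.55) while Sdc1 fell by 2.92 (SE 0.74). Of the B cell genes, 5 of 11 were higher and 2 lower, with sums of 139 and 129 CPM in KO and 185 and 145 in WT. Cr2, a complement receptor, had 58 and 43 counts in KO and 3 in each WT library (4.02, SE 0.54). The 2 lower ones were Cd79b (-1.67, SE 0.38) and Cd37 (-0.99, SE 0.18). Among the kappa transcription factors, Ebf1, which commits cells to the B lineage, had 159 and 133 counts in KO and 30 and 43 in WT (2.00, SE 0.30). Rel, Nfkb1 and Rela fell by 0.77 (SE 0.26), 0.68 (SE 0.16) and 0.62 (SE 0.19). Of 5 tested heavy chain constant genes, none was higher, 1 was lower and 4 had no call. The lower one, Ighg1, had 625 and 370 counts in WT and 1 and 5 in KO (-7.31, SE 0.49, adjusted p = 9.8e-05), the same direction as Igkv4-72. Without a call, Ighg2b had 574 and 358 counts in KO and 329 and 162 in WT (0.93, SE 0.33), and Ighm differed by 0.10 (SE 0.27). Of the pre-B and recombination genes 2 of 10 were higher and 2 lower, of the kappa transcription factors 2 of 11 higher and 3 lower, and neither the lambda nor the kappa constant list held a call. The shares called higher in the antibody-secreting, pre-B and transcription factor lists were thus close to that over all genes. Those called lower, 3 of 11, 2 of 10 and 3 of 11, were above the 10.9% over all genes.

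Markers of other cells moved with genotype as well. Over all tested genes, 22.5% were higher and 10.9% lower in LT-HSC KO, and 4.74% higher and 2.46% lower in MPP KO. In LT-HSC, all 12 erythroid genes were higher in KO (summed 5106 and 6543 CPM, against 1380 and 1807 in WT), as were 8 of 10 stromal and endothelial genes (524 and 725 CPM against 98.3 and 104). Granulocyte and monocyte genes were higher in 5 of 7 tested cases and lower in 1, and T and NK genes were lower in 2 of 4. In MPP, 4 of 12 erythroid, 2 of 6 stromal and endothelial, 5 of 9 granulocyte and monocyte and 4 of 12 T and NK genes were higher, and 1 granulocyte and monocyte gene was lower. The T and NK sum was 26.2 and 31.4 CPM in LT-HSC KO and 85.5 and 90.5 in WT, and 160 to 163 CPM in MPP KO and 164 to 167 in WT. The 2 lower in LT-HSC were Nkg7, with 38 and 38 counts in KO and 333 and 311 in WT, and Klrb1c, with 8 and 7 against 36 and 44. The T and NK genes at 0 in both WT libraries were Cd3g, Cd8a, Trac and Prf1 in LT-HSC, where Prf1 was at 0 in KO too, and Cd8a in MPP. In LT-HSC KO, Trac had 8 and 8 counts and Cd3g and Cd8a 3 and 8 each, so these untested T cell genes went the other way from the sum. Their part in the Igkv results was not tested.

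Genes outside the immunoglobulin families within 1 Mb of the locus were mostly not called in MPP. On the J-distal side, none of 8 tested genes was called in edgeR's test, with a median of -0.14. On the J-proximal side, 3 of 12 were higher (4.74% of all tested genes): Eif2ak3, a stress kinase gene (0.38, SE 0.07), and the T cell genes Cd8a and Cd8b1. In LT-HSC, 2 of 8 tested genes were higher and 1 lower on the J-distal side, and 2 of 10 were higher on the J-proximal side, near the shares over all tested LT-HSC genes (22.5% higher and 10.9% lower). The 2 J-proximal genes were Reep1, with 98 and 45 counts in KO and 2 and 5 in WT, and Smyd1, with 65 and 81 against 33 and 34. These genes were chosen after their values were seen.

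In the authors' deposited table, 11 of the 70 LT-HSC segments were higher and 23 lower at an FDR under 0.05, beside 27.5% higher and 8.47% lower over all its genes. For MPP, the authors' deposited table had 53 of the 100 segments higher and 11 lower, beside 5.32% and 2.58% over all genes. The deposited LT-HSC calls cover all 70 segments, and those of edgeR's quasi-likelihood test (9 higher, 5 lower) the 20 that passed its filter.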

How the data were processed

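RNA of 8 libraries (2 populations, WT and Tet1 KO, 2 libraries per group) was measured by poly(A) RNA sequencing. CASAVA, TopHat and mm9 are named per the submitters' processing notes; for versions, annotation and read counter: not given in the sources used here. The authors deposited a raw count per gene and library for each population. The authors also deposited log2 fold changes, mean log2 CPM, a likelihood ratio score, p-values and FDR per the file headers.

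Counts were tested per population with edgeR 4.0.16 (R 4.3.3): filterByExpr, TMM, quasi-likelihood test, Benjamini-Hochberg adjusted p under 0.05 over all 15684 LT-HSC and 14902 MPP genes. The interaction used 16551 genes and all 8 libraries. CPM is counts scaled to the effective (TMM) library size. Groups with 1 to 3 counts get a ratio with an exact binomial interval. Intervals cover counting error only. A floor of 3 counts is 0.547 to 0.603 CPM in LT-HSC and 0.24 to 0.251 CPM in MPP. With 2 against 2 libraries an exact permutation test cannot go below p = 0.333, so sums and shares got no test. The 50-base uniqueness and identities were computed on GENCODE M21 transcripts, in which all 100 symbols were found (54 with the same Ensembl ID).

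On simulated data edgeR recovered 38% of 2-fold and 88% of 4-fold changes in LT-HSC (15684 genes), 77% and 94% in MPP (14902 genes), and 15% and 82% for the interaction (16551 genes). Alternatives were other scalings, DESeq2 1.42.0, no filter, a replicate block and leaving out each library; library sizes without immunoglobulin genes, leaving out the top segment and using unique segments only were added after seeing the data.

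Segments named were those called (the 12 highest by mean CPM where more), the 3 most counted per library and up to 6 interaction calls; Tet1 and up to 4 called genes per list were named too. Members, lists and tests were chosen with earlier results of these data known. The sequences of 1 further pair of segments are not reported here.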

Additional observations from a re-analysis of the deposited data

Results flagged for a closer look

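The effect of genotype on single segments differed between LT-HSC and MPP by the test of the interaction in edgeR's quasi-likelihood fit, with Benjamini-Hochberg adjustment over 16551 genes. It was more positive in LT-HSC for 6 of 70 segments (13.6% of all tested genes) and more positive in MPP for 29 (8.5% of all tested genes). Of the 29, 20 had too few LT-HSC counts to be tested there and entered through their MPP counts, as did 3 of the 6. The named segments with the widest difference were Igkv4-72 (-7.76, adjusted p = 0.000228), Igkv4-71 (-6.93, adjusted p = 0.0117), Igkv4-56 (-6.92, adjusted p = 0.0259), Igkv4-79 (-6.78, adjusted p = 0.0397), Igkv6-29 (6.55, adjusted p = 0.00398) and Igkv12-44 (-6.20, adjusted p = 0.0049), on the log2 scale and as LT-HSC minus MPP. Igkv4-71, Igkv4-56 and Igkv4-79 had 0 counts in both LT-HSC KO libraries, Igkv4-72 had 1 and 0 there, and Igkv6-29 had 0 and 1 in LT-HSC WT. The fitted values of these 5 depend on the prior count and are no bound. Igkv12-44 did not pass the filter in LT-HSC either. It had 52 counts in LT-HSC WT replicate 1, while all of family 12 had 20 in WT replicate 2, so its value leans on 1 WT library. Against a floor of 3 counts over the group, Igkv4-71 was at least 3.66-fold lower in LT-HSC KO.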

How the results depend on the processing

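The summed KO to WT ratio in LT-HSC turned from 1.38 to 0.307 over segments with no shared 50-base stretch. In MPP it moved from 2.46 to 1.43, and the latter rests on Igkv15-103. The cause of these moves was not tested. Leaving out each library gave ratios from 1.09 to 1.71 (LT-HSC) and from 2.27 to 2.66 (MPP). Counts of segments called ran from 4 to 8 higher and 1 to 6 lower in LT-HSC, from 0 to 43 higher and 0 to 6 lower in MPP, and from 3 to 6 and 15 to 30 for the interaction. With the replicate number as a block, 10 segments were higher and 6 lower in LT-HSC, 72 and 17 in MPP, and 9 and 35 in the interaction. Same-numbered libraries deviated together over all genes (r = 0.424 in LT-HSC and 0.683 in MPP), but with 2 pairs the samples share only a number. DESeq2 gave 7 higher and 4 lower in LT-HSC, 57 and 10 in MPP, and 9 and 30 in the interaction. Without a filter MPP had 42 higher and 8 lower. Total counts alone gave 9 and 29 in the interaction. LT-HSC libraries held 495 to 1035 Igkv counts each, and 50 of 70 segments did not pass the filter on low counts.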
